A study of Mus musculus with 6 samples.

Results

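Solute carriers are the membrane proteins that move ions, nutrients, metabolites and metals across the cell surface and the membranes of organelles. Genes whose symbol begins with Slc and a family number were taken when all barcodes of the table together held at least 50 unique molecular identifiers (UMIs, one for each RNA molecule captured). Of 373 genes with such a symbol among the 27998 genes of the table, 221 reached that count and 152 did not, and 57 of those 152 had no UMI at all. The rule used only a gene's symbol and its total and set no condition on cell class. A total can still come mostly from a single class, so the choice was not independent of class. Slc22a3, with 85 UMIs in Npnt fibroblasts, and Slc39a2, with 125 UMIs in alveolar macrophages, reached 50 UMIs through those classes alone. Symbols mark families rather than function, and 5 of the 221 are not carriers (Slc4a1ap, Slc7a6os, Slc36a3os, Slc9a3r1 and Slc9a3r2).

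The cells came from the lungs of SMA-GFP;Tbx4cre;RosaTdTomato mice, in which GFP reports smooth muscle actin (SMA) and Cre from the Tbx4 gene switches on tdTomato (Tm) in lung mesenchyme. SMA+Tm+, SMA-Tm+ and SMA-Tm- cells were sorted 21 days after lung injury with bleomycin, which leads to fibrosis, and the same 3 gates were sorted from normal lung on day 0. All 6 samples were sorted to lack Epcam, CD31 and CD45, and each gate and day had 1 sample. The deposited table pools the samples, its barcode suffixes 1 to 6 are not tied to a labelled sample, and day and gate were therefore not compared. No test was made, and every interval below covers counting error only.

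Carriers are grouped by what they move. Families exchange amino acids, import glucose, swap sodium or protons for other ions, carry lactate with a proton, take metals such as zinc and iron in or out, or shuttle metabolites over the inner mitochondrial membrane. Many run on the sodium gradient across the cell surface, and some need a partner protein to reach the surface. In lung, the phosphate carrier Slc34a2 is a known product of the alveolar type II cell, while fibroblasts, vessels and macrophages each draw on carriers for matrix synthesis, amine clearance or metal handling.

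Cells were placed in classes by a few gate genes, none of them a carrier. Fibroblasts had 3 or more UMIs of Col1a2 and Col3a1 together and were divided by Hhip (557 cells), Npnt (934) or Pi16 (316), with 437 cells that had none of the 3 genes and are called ungated fibroblasts. Cells with 2 or 3 of these genes were left out. The other classes were mural cells (46), mesothelium (94), endothelium (577, with 2 or more UMIs of Pecam1 and Cdh5), epithelium (76), B cells (983), T cells (929), NK cells (225), alveolar macrophages (731), C1q macrophages (132), dendritic cells (127), and classical (296) and nonclassical monocytes (109). Leukocytes by their gate made up 45.7% of all 9919 cells, although the sort was set to remove CD45+ cells. Endothelium made up 5.82% and epithelium 0.766%, although the sort was also set to remove CD31+ and Epcam+ cells. Cells of these classes are those that the sort left in. Marker genes outside the gates were highest in their own class for 6 of 6 in Hhip, Npnt, mural, mesothelial, endothelial and NK cells and for 5 of 6 in Pi16 cells, epithelium, alveolar macrophages and nonclassical monocytes. They were highest in 5 of 5 for B cells and 3 of 5 for T cells, in 3 of 6 for C1q macrophages and classical monocytes, and in 2 of 6 for the cells gated by Flt3, Xcr1, Clec9a and Cd209a, which are called dendritic cells here by that gate alone. Suffix totals ranged between 2778071 and 12427810 UMIs, suffix 4 held 774 of the 934 Npnt cells and 350 of the 557 Hhip cells, and 110 barcodes carried 55 sequences that stood under more than 1 suffix.

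Levels are given as CPM, the UMI count of a gene in each 1000000 UMIs of a class. A UMI stands for a captured molecule, so a CPM is a share of molecules and does not depend on the length of the gene in the way of read counts. A carrier was called restricted to a class when it had at least 10 UMIs there, at least 4 times the CPM of every other class, and a ratio to the next class whose lower 95% bound (exact conditional binomial) exceeded 2. By this rule 12 of the 221 genes (5.43%) were restricted to 1 class, against 5.46% of the 13320 genes with 50 or more UMIs outside the gates. Set against classes outside its own lineage only, 28 genes (12.7%) were restricted to a lineage, against 11.8% of all genes. Both shares are near the background, and the counts are read here as a description of single genes rather than of the family. The median ratio of the highest to the next class was 1.38 for the carriers and 1.27 for all genes, with median totals of 430 and 655.5 UMIs.

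**Figure D1:**
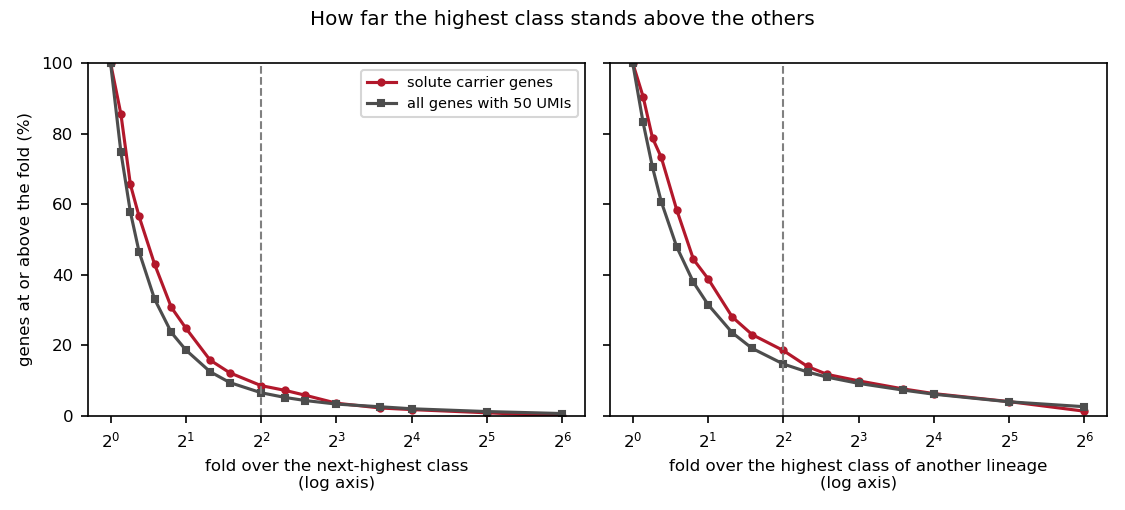
Share of genes (%, vertical axis) whose highest class stands at or above a given fold over the next class (left) or over the highest class of another lineage (right), on a log axis, for the 221 solute carrier genes (red) and for all 13320 genes (grey). The dashed line marks the 4-fold threshold, where 8.60% of the carriers and 6.58% of all genes lay at or above it before the UMI minimum and the bound were applied.

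The restricted carriers were divided among 7 classes. Npnt fibroblasts held 3 (Slc7a10, Slc22a3 and Slc13a4), against 0.18% of all genes restricted to that class. Epithelium also held 3 (Slc34a2, Slc15a2 and Slc16a11), against 1.31% of all genes, and alveolar macrophages 2 (Slc39a2 and Slc9a4), against 0.368%. Hhip fibroblasts held 1 (Slc8a3, against 0.203% of all genes), as did mesothelium (Slc16a1, against 0.443%), endothelium (Slc6a2, against 1.18%) and B cells (Slc46a2, against 0.428%). A count of 3 is 1.36% of the 221 carriers and a count of 1 is 0.452%. No carrier was called in Pi16 fibroblasts (against 0.00751% of all genes), ungated fibroblasts (0%), mural cells (0.398%), T cells (0.27%), NK cells (0.338%), C1q macrophages (0.128%), dendritic cells (0.0901%), classical monocytes (0.0676%) or nonclassical monocytes (0.045%). Of the 28 lineage calls, 7 lay in fibroblasts (3.17% of carriers, against 1.41% of all genes), 16 in leukocytes (7.24%, against 7.02%) and 5 in mesothelium, endothelium or epithelium, which are lineages of a single class with the shares of all genes just given (0.443%, 1.18% and 1.31%). None lay in mural cells (0.398%). The map of CPM by class shows the 29 genes called in either way as blocks along the fibroblast, epithelial and myeloid columns.

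**Figure D2:**
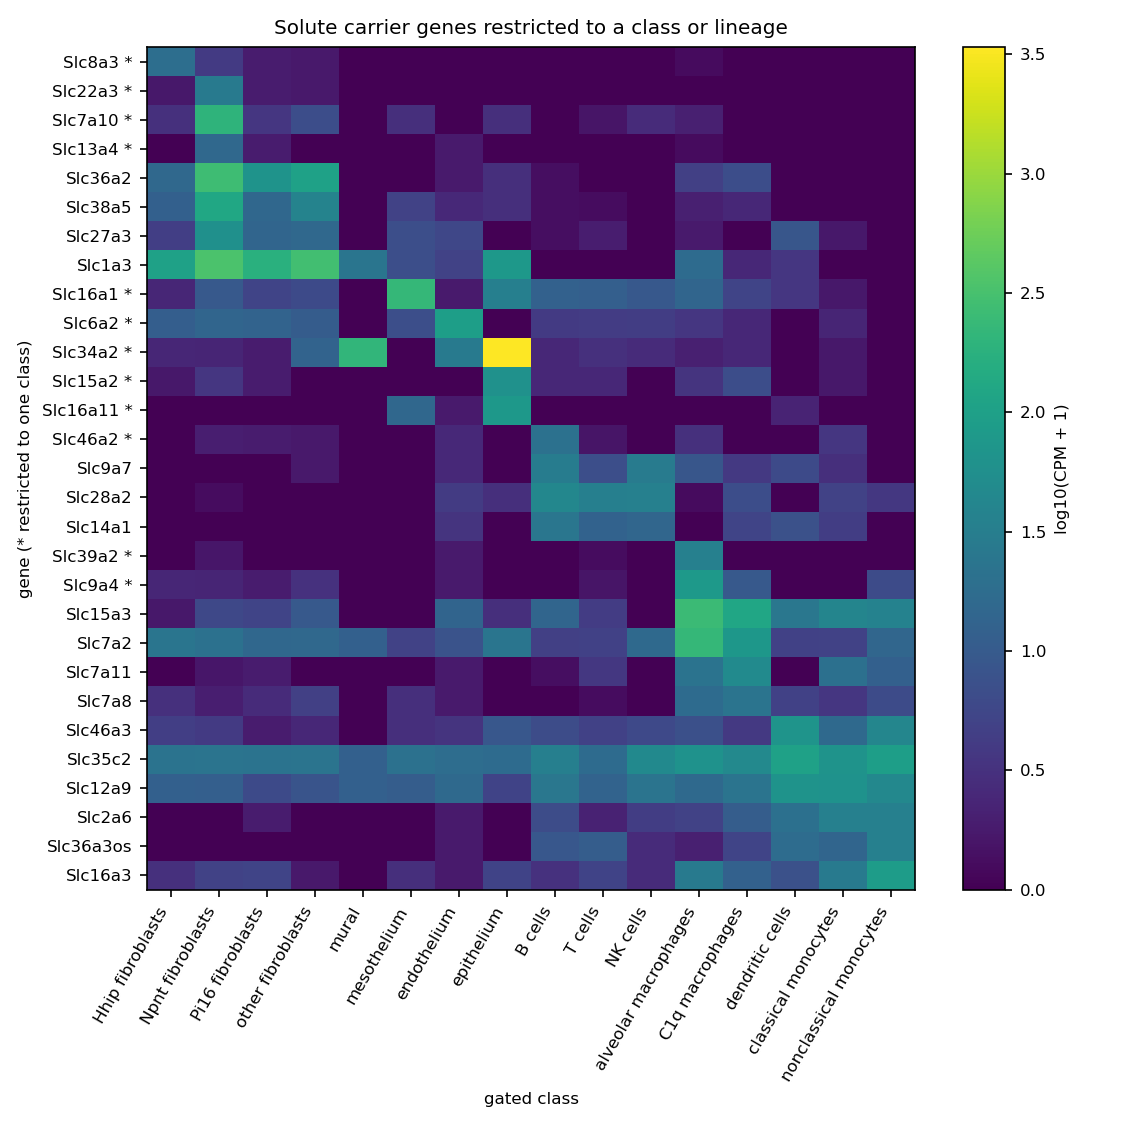
Level of the 29 solute carrier genes restricted to a class or a lineage (rows, an asterisk marks the 12 restricted to 1 class) in the 16 gated classes (columns), as log10(CPM + 1). Slc34a2 in epithelium is the brightest cell at 3389 CPM, and the Npnt column is the highest of the fibroblast columns for Slc7a10, Slc22a3, Slc13a4, Slc36a2, Slc38a5, Slc27a3 and Slc1a3.

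The stretches before the start sites of the 3 carriers restricted to Npnt fibroblasts are given here because these genes shared a class. Npnt cells also had the highest level of Tcf21 (610 CPM, against 181 CPM in the fibroblasts with none of the 3 gate genes). Tcf21 is among the markers that checked the Npnt class, so this level repeats that check and is no separate result. It encodes a basic helix-loop-helix factor of lung mesenchyme. Factors of that kind bind E-boxes, written CANNTG, a motif that reads as CANNTG on both strands. Each sequence holds the 250 bases before the RefSeq start (GRCm38.p6, on the gene's strand), at chr7:35186135-35186384 (plus strand) for Slc7a10, chr17:12507705-12507954 (minus strand) for Slc22a3 and chr6:35308127-35308376 (minus strand) for Slc13a4, with CANNTG in capitals.
Slc7a10: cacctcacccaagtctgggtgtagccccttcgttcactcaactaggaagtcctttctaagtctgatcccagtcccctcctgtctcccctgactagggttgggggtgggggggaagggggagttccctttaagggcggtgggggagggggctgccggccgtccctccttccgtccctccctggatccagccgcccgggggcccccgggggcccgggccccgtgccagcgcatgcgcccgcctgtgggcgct
Slc22a3: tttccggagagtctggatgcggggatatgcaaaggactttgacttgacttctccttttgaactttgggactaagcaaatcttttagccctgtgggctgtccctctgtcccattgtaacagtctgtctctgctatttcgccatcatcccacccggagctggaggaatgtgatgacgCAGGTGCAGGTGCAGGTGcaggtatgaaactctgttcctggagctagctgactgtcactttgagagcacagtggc
Slc13a4: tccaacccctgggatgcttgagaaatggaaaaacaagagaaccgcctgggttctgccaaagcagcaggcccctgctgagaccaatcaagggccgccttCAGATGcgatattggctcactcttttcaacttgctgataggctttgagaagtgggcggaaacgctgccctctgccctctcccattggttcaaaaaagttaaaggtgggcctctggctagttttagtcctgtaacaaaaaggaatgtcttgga
Slc22a3 had 3 matches in tandem, each CAGGTG, Slc13a4 had 1 match, CAGATG, and Slc7a10 had none. Among 32851 RefSeq promoters cut in the same way, 66.2% held CANNTG and 12.2% held it 3 or more times. The form CAGCTG, held by 13% of promoters, was in none of the 3 sequences. The bases were G or C for 69.6% of the Slc7a10 sequence, 51.2% of that of Slc22a3 and 50.4% of that of Slc13a4. These matches describe the letters of the windows and say nothing of binding.

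Amino acid carriers held 7 called genes of 27, with 1 restricted to a class and 6 more to a lineage, where 11.8% of all genes were called in either way. The count is the highest of any substrate group but the share is not, since peptide carriers had 2 of 3 and mono- and dicarboxylate carriers 4 of 11. Slc7a10 (chr7:35186385-35201114), an exchanger of small neutral amino acids such as alanine and serine that pairs with the Slc3a2 heavy chain, had 196 CPM in Npnt fibroblasts (603 UMIs). The next classes were the fibroblasts with none of the 3 gate genes at 5.84 CPM, Pi16 fibroblasts at 2.62 CPM and Hhip fibroblasts at 2.09 CPM, and 7 classes had no UMI. The level in Npnt fibroblasts was 33.5 times the next class (95% interval 16.9 to 78.0) and 74.8 times the higher of the other gated fibroblasts (25.5 to 364). At least 1 UMI was found in 33.9% of Npnt cells (317 of 934), against 1.83% of the fibroblasts with none of the gate genes (8 of 437), at median depths of 2899 and 2820 UMIs. With each cell thinned to 1000 UMIs these shares were 17.9% of 930 cells and 0.907% of 416 cells. In the suffixes with 20 or more Npnt cells, Slc7a10 had 193, 183, 559 and 372 CPM in the Npnt cells of suffixes 1, 4, 5 and 6, against 1.56, 2.21, 0.440 and 1.05 CPM in all other classes pooled. The Npnt cells stood higher in each of the 4 suffixes, and those of suffixes 5 and 6 number 27 and 20. In suffixes 5 and 6 the other classes held no Hhip cell, 4 and 2 Pi16 cells, and 3 and 7 ungated fibroblasts. There the comparison is almost all with cells outside the fibroblasts and says little of Npnt cells against other fibroblasts. Its partner Slc3a2 was read in every class and was highest in endothelium (305 CPM), with 92.3 CPM in Npnt fibroblasts.

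Another 3 carriers of amino acids were spread over the fibroblasts and were highest in the Npnt gate. Slc36a2, which moves glycine and proline with a proton, had 273 CPM in Npnt fibroblasts, 104 CPM in those with no gate gene, 63.7 CPM in Pi16 and 14.6 CPM in Hhip fibroblasts. Outside the fibroblasts its highest level was 5.75 CPM, in C1q macrophages (4 UMIs), so the Npnt level was 47.5 times that of any other lineage (18.5 to 175). Slc38a5, a sodium-coupled glutamine carrier, had 127 CPM in Npnt fibroblasts, and its highest level in another lineage was 3.97 CPM in mesothelium (2 UMIs, ratio 31.9, interval 8.78 to 264). Slc1a3, the glutamate and aspartate carrier known from glia, was the least uneven of them, with 343 CPM in Npnt, 288 CPM in ungated, 175 CPM in Pi16 and 104 CPM in Hhip fibroblasts, and with 75.1 CPM in epithelium. Slc36a2 had 198, 272, 360 and 329 CPM in Npnt cells of suffixes 1, 4, 5 and 6, against 19.8, 31, 0.220 and 4.19 CPM in all other classes. As with Slc7a10, the Npnt cells were the higher in all 4 suffixes, and in suffixes 5 and 6 the comparison was almost all with cells outside the fibroblasts.

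**Figure D3:**
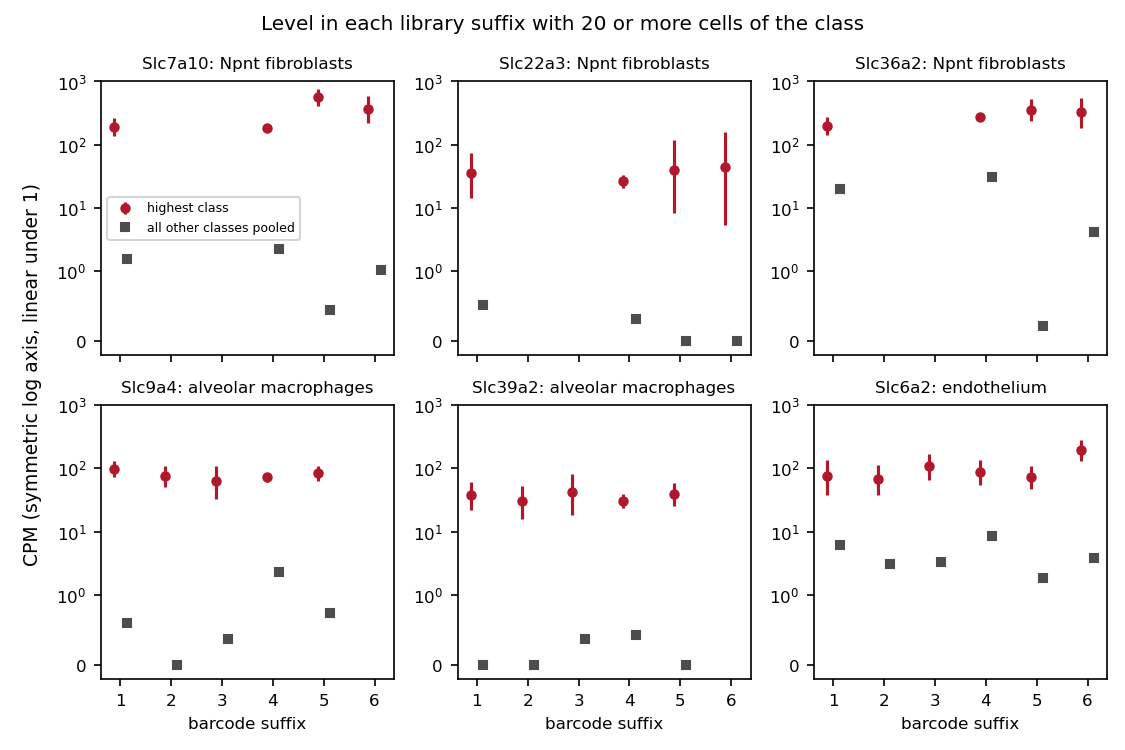
Level (CPM, symmetric log axis that is linear under 1) of 6 carriers in the class where each was highest (red, with exact Poisson 95% intervals) and in all other classes pooled (grey) for each barcode suffix with 20 or more cells of the class. In every suffix plotted the class lies above the other classes pooled. Slc9a4, for example, lies between 62.6 and 99.3 CPM in alveolar macrophages, against 0 to 2.28 CPM in the other classes pooled.

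In leukocytes 3 amino acid carriers were called by lineage. Slc7a11, the cystine and glutamate exchanger that feeds glutathione synthesis, had 47.4 CPM in C1q macrophages, 20.9 CPM in alveolar macrophages and 19.3 CPM in classical monocytes. Its highest level outside leukocytes was 0.873 CPM, 1 UMI in Pi16 fibroblasts (ratio 54.3, interval 9.09 to 2210). The arginine carrier Slc7a2 had 223 CPM in alveolar macrophages, 9.97 times the highest other lineage, and Slc7a8, a carrier of large neutral amino acids, had 21.6 CPM in C1q macrophages, 5.90 times. Both passed for the lineage and not for a class, and Slc7a8 lost the call without suffix 1, 3, 4 or 5 in turn.

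Of the carriers called in nothing, Slc6a6 and Slc43a3 were among the 5 with the most UMIs. The taurine carrier Slc6a6 had 567 CPM in alveolar macrophages, 250 CPM in C1q macrophages, 239 CPM in endothelium and 211 CPM in Npnt fibroblasts, and 35.6 to 135 CPM in the other classes. Slc43a3, placed by family among amino acid carriers but known as a carrier of purine bases, had 599 CPM in Pi16, 516 CPM in ungated and 441 CPM in Npnt fibroblasts and 330 CPM in endothelium. It lay at or under 10.3 CPM in each leukocyte class.

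Of the 6 carriers of the family that clears neurotransmitters and amines, 1 was called, against 11.8% of all genes. Slc6a2, which takes up noradrenaline from the extracellular space, had 94.6 CPM in endothelium (120 UMIs), 7.28 times the 13 CPM of Npnt fibroblasts (5.05 to 10.7). Its level in the Pi16, Hhip and ungated fibroblasts lay between 9.49 and 12.2 CPM, and no UMI was found in mural cells, epithelium, dendritic cells or nonclassical monocytes. Only 7.80% of endothelial cells held a UMI (45 of 577), against 4.07% of Npnt cells (38 of 934), at median depths of 1759 and 2899 UMIs. Thinned to 1000 UMIs, the shares were 5.79% and 1.11%. Slc6a2 had 75.3, 67.8, 108, 88.2, 73.5 and 194 CPM in endothelial cells of suffixes 1 to 6, against 1.86 to 8.62 CPM in all other classes of the same suffixes. Without suffix 4 the ratio to the next class was 4.40 with a lower bound of 1.95, which ended the call.

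The families of mono- and dicarboxylate carriers gave 4 called genes of 11, against 11.8% of all genes, and 1 of the 4, Slc13a4, carries sulphate and stands here by its family number. Slc16a1, the proton-coupled lactate and pyruvate carrier MCT1, had 222 CPM in mesothelium (112 UMIs), against 32.5 CPM in epithelium and 13.2 CPM or less in every other class (ratio to epithelium 6.84, interval 4.03 to 12.4). A UMI was found in 53.2% of mesothelial cells (50 of 94), against 18.4% of epithelial cells (14 of 76), at median depths of 5043 and 5709 UMIs, and thinned to 1000 UMIs in 17.2% and 3.5%. Bsg, the chaperone that brings MCT1 to the surface, was also highest in mesothelium at 1070 CPM, against 510 CPM in epithelium, and was not called. Only suffix 4 held 20 or more mesothelial cells, with 174 CPM against 7.81 CPM in its other classes, and without suffix 4 the class fell under 40 cells and gave no value. Slc16a3, the lactate exporter MCT4, was a leukocyte gene, with 88.0 CPM in nonclassical monocytes, 27.3 CPM in classical monocytes and 26.7 CPM in alveolar macrophages, 20.2 times the highest other lineage (7.80 to 66.3). Slc16a11, a less studied member of the same family, had 75.1 CPM in epithelium (37 UMIs in 12 of 76 cells) and 13.9 CPM in mesothelium, and it lost the call without suffix 6. Slc13a4 (chr6:35267957-35308131), a sodium-coupled sulphate carrier, had 14.6 CPM in Npnt fibroblasts (45 UMIs), against 1 UMI each in Pi16 fibroblasts, endothelium and alveolar macrophages and none in 12 classes. Its ratio to Pi16 fibroblasts was 16.7 with a counting interval of 2.86 to 676. Without suffix 4 it had 8 UMIs in Npnt cells, under the minimum. With 2 UMIs of the fibroblast gate gene required, Slc13a4 lost its class call and its call among the gates. With at least 1000 genes and at most 5% mitochondrial UMIs a cell, it lost its class and lineage calls.

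Slc22a3 (chr17:12418960-12507704), the organic cation carrier OCT3 that takes up monoamines, was the 1 called gene of 8 carriers of organic ions, against 11.8% of all genes. It had 27.6 CPM in Npnt fibroblasts (85 UMIs), 1 UMI in each other fibroblast class and none in the 12 classes outside the fibroblasts. The ratio to Pi16 fibroblasts was 31.6, with an interval of 5.53 to 1264. A UMI was found in 8.57% of Npnt cells (80 of 934), against 0.316% of Pi16 cells (1 of 316), at median depths of 2899 and 3576 UMIs, and thinned in 3.11% and 0.284%. It had 35.6, 26.5, 39.96 and 43.8 CPM in Npnt cells of suffixes 1, 4, 5 and 6, against 0.520, 0.315, 0 and 0 CPM in all other classes. The counts behind these levels are 7, 72, 3 and 2 UMIs, and few cells of the other classes in suffixes 5 and 6 were fibroblasts. Without suffix 4 the ratio was 9.78 with a lower bound of 1.47, which ended the call. Slc22a3 was the 1 gene called for a class and not for its lineage, since mural cells, with 89373 UMIs in all, had no UMI and the lower bound of the ratio to them was 0.655.

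Phosphate and peptide carriers had 3 members each. Slc34a2, the sodium-phosphate cotransporter that takes up phosphate released with surfactant, had 3389 CPM in epithelium, in 82.9% of its cells (63 of 76), against 2.17% of mural cells (1 of 46). The next class was mural at 213 CPM, where all 19 UMIs lay in that cell, giving a ratio of 15.9 (10.2 to 26.5). Mural cells also had the next-highest level of the surfactant gene Sftpb, 470 CPM, against 6998 CPM in epithelium, and the part of these RNAs in the mural value was not tested. Without suffix 4 the mural class fell under 40 cells and the ratio, then to Npnt fibroblasts, was 602. Slc15a2, an importer of short peptides, had 60.9 CPM in epithelium and 5.75 CPM in C1q macrophages (ratio 10.6, interval 3.73 to 41.4), and without suffix 4 its lower bound was 1.89, under the limit. Slc15a3, which carries histidine and peptides out of lysosomes, was a leukocyte gene with 252 CPM in alveolar macrophages, 122 CPM in C1q macrophages and 39.2 CPM in classical monocytes, 19.9 times the highest other lineage (12.2 to 35).

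Metal carriers gave 1 called gene of 27, against 11.8% of all genes. Slc39a2 (chr14:51892889-51896745), the zinc importer ZIP2, had 33.1 CPM in alveolar macrophages (125 UMIs), 1 UMI each in endothelium and T cells, 2 UMIs in Npnt fibroblasts and none in 12 classes. The ratio to endothelium was 42.0 with an interval of 7.40 to 1671. Its level in alveolar macrophages was 37.5, 30.1, 41.7, 30.9 and 39.7 CPM in suffixes 1 to 5, against 0, 0, 0.366, 0.427 and 0 CPM in all other classes. The alveolar macrophages stood higher in each of the 5 suffixes. With clusters in place of the gates, Slc39a2 lost the class call. Slc30a1, the zinc exporter of the cell surface, came just under the threshold, with 68.6 CPM in endothelium and 22.4 CPM in mural cells (2 UMIs, ratio 3.07, interval 0.824 to 25.7). It was restricted to endothelium, with a ratio of 5.40, when suffix 4 and with it the mural class were left out.

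Among 14 exchangers of sodium, protons and calcium, 3 were called, each highest in another class, against 11.8% of all genes. Slc9a4 (chr1:40580081-40630725), a sodium-proton exchanger known from the acid-secreting stomach, had 78.1 CPM in alveolar macrophages (295 UMIs) and 8.62 CPM in C1q macrophages (6 UMIs, ratio 9.06, interval 4.11 to 24.9). A UMI was found in 32.7% of alveolar macrophages (239 of 731), against 4.55% of C1q macrophages (6 of 132), at median depths of 5104 and 5020 UMIs, and thinned in 8.07% and 0.891%. It had 99.3, 75.3, 62.6, 73.1 and 84.3 CPM in alveolar macrophages of suffixes 1 to 5. All other classes pooled had at most 2.28 CPM in these suffixes. The Slc9a4 call was lost without suffix 5 (ratio 6.11, lower bound 1.67) and with clusters in place of the gates. Slc8a3 (chr12:81197915-81333180), the sodium-calcium exchanger NCX3, had 18.1 CPM in Hhip fibroblasts (26 UMIs), against 2.92 CPM in Npnt fibroblasts (9 UMIs, ratio 6.19, interval 2.81 to 15) and none in 11 classes. It had 23.4 and 16.4 CPM in Hhip cells of suffixes 1 and 4, against 2.31 and 0.747 CPM in all other classes, and without suffix 4 the ratio was 2.73. Slc9a7, a sodium-proton exchanger of the Golgi, had 29.8 CPM in B cells, 28.8 CPM in NK cells and 1.58 CPM in endothelium, its highest level outside leukocytes.

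Sugar carriers added 1 called gene of 15 and the vitamin families 2 of 9, against 11.8% of all genes. Nucleoside, urea and fatty acid carriers, in groups of 3, 1 and 3 genes, added 1 called gene each, against the same share. The 2 of the vitamin group, Slc46a2 and Slc46a3, stand there by family number alone. Slc2a6, a glucose carrier family member of lysosomes, had 33.3 CPM in classical and 33 CPM in nonclassical monocytes, and 1 UMI at most in any class outside leukocytes (ratio 38.1, interval 6.53 to 1534). The widely used glucose importer Slc2a1 was not called and lay between 4.36 and 17 CPM in 15 classes, with no UMI in mural cells. Slc46a2, a carrier known from thymic stroma, had 19.5 CPM in B cells (53 UMIs) and 2.66 CPM in classical monocytes (4 UMIs, ratio 7.33, interval 2.70 to 27.9). In B cells of suffixes 1 to 6 it had 0, 23.2, 15.4, 11.8, 19.6 and 27.3 CPM, and the call was lost without suffix 4 and without suffix 6. Slc28a2, an importer of purine nucleosides, and Slc14a1, a urea carrier, were also highest in B cells, at 42.3 and 23.2 CPM, with 33.9 and 13.6 CPM in NK cells, and were called for the leukocyte lineage. Slc46a3, a lysosomal carrier, Slc35c2, of the nucleotide sugar family, and Slc12a9, of the cation-chloride family, were highest in dendritic cells at 66.6, 105 and 64.1 CPM and were 8.20, 4.80 and 4.28 times the highest other lineage. The other myeloid classes came close for 2 of them, since Slc12a9 had 62.5 CPM in classical monocytes and Slc35c2 had 93.5 CPM in nonclassical monocytes. In suffix 2, Slc35c2 had 24.8 CPM in dendritic cells, against 31.8 CPM in all other classes. Slc12a9 lost the lineage call without suffix 4. Slc27a3, of the fatty acid carrier family, had 57.5 CPM in Npnt fibroblasts and 14.6 CPM in ungated fibroblasts, 7.48 times the highest other lineage, dendritic cells (3.37 to 20.7). Slc36a3os, an antisense RNA and no carrier, had 33 CPM in nonclassical monocytes and 16.7 CPM in dendritic cells, and it lost the call without suffix 2 or suffix 5. How the counting used strand was not given in the sources used here, and the part of reads from the overlapping sense gene was not tested.

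Mitochondrial carriers formed the largest group, 38 genes, and none was restricted to a class or a lineage, against 11.8% of all genes. The median ratio of the highest class to that of another lineage was 1.5 in this group, against 1.65 over all carriers. The phosphate carrier Slc25a3, with the most UMIs of any carrier (11125), lay between 217 CPM in endothelium and 472 CPM in classical monocytes. The adenine nucleotide exchangers Slc25a4 and Slc25a5 ran in different directions. Slc25a4 lay between 262 and 347 CPM in the fibroblast and mural classes and at 385 CPM in mesothelium, against 44 to 165 CPM in leukocyte classes. Slc25a5 lay between 71.0 and 93.2 CPM in the 4 fibroblast classes, against 272 to 625 CPM in leukocyte classes. Slc25a10, the dicarboxylate carrier, came just under the threshold with 44.7 CPM in epithelium and 11.5 CPM in C1q macrophages (ratio 3.89, interval 1.67 to 10.1). Of 21 genes of the nucleotide sugar family 1 was called for a lineage, and of 15 bicarbonate and chloride carriers also 1, against the same 11.8% of all genes.

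**Figure D4:**
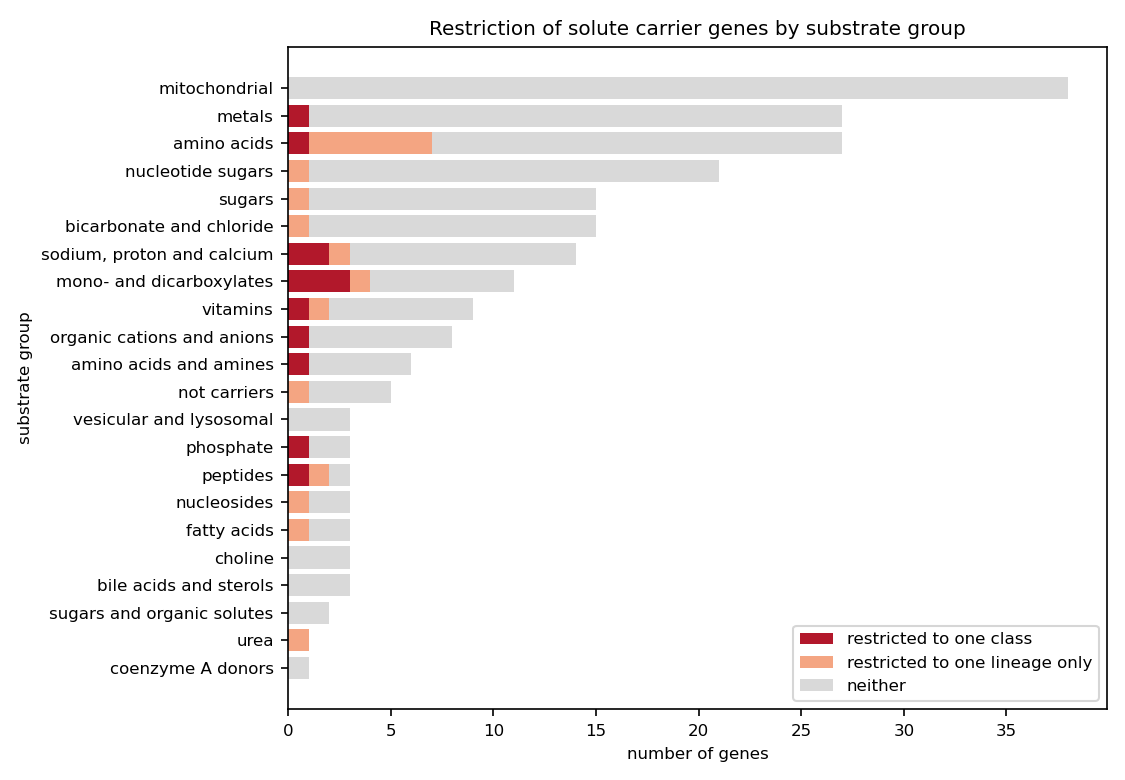
Number of solute carrier genes (horizontal axis) in each substrate group, divided into those restricted to 1 class (red), those restricted to a lineage only (orange) and those restricted to neither (grey). Called genes number 0 of 38 in the mitochondrial group, 7 of 27 in the amino acid group and 4 of 11 in the mono- and dicarboxylate group, where 11.8% of all genes were called.

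Set against each other alone, the Hhip, Npnt and Pi16 fibroblasts differed in 9 carriers (4.07%), against 2.78% of all genes. Npnt fibroblasts were the highest for 7 of them (3.17%, against 0.901% of all genes), Hhip fibroblasts for 2 (0.905%, against 1.14%) and Pi16 fibroblasts for none (against 0.736%). After Slc7a10, Slc22a3 and Slc13a4, given above, the other Npnt genes were Slc38a5, Slc35g2, Slc27a3 and Slc36a2. Slc38a5 had 127 CPM in Npnt, 14 CPM in Pi16 and 11.1 CPM in Hhip fibroblasts (9.07 times the next gate, 5.52 to 16), and Slc27a3 had 57.5, 13.1 and 3.48 CPM in the same gates (4.39 times, 2.59 to 8.01, a call lost without suffix 1). Slc36a2 was 4.28 times the Pi16 level (3.37 to 5.52). With at least 1000 genes and at most 5% mitochondrial UMIs a cell, Slc36a2 and Slc27a3 lost the call among the gates. Slc35g2, a nucleotide sugar family member of unsettled substrate, had 31.8 CPM in Npnt and 6.96 CPM in Hhip fibroblasts (4.57 times), and 112 CPM in mural cells from 10 UMIs. Its call among the gates was lost with 2 UMIs of the gate gene required and with clusters in place of the gates. The Hhip genes were Slc8a3 and Slc25a13, the mitochondrial aspartate-glutamate carrier. Slc25a13 had 16 CPM in Hhip fibroblasts (23 UMIs), against 0.650 CPM in Npnt fibroblasts (2 UMIs) and none in Pi16 fibroblasts (ratio 24.7, interval 6.09 to 216). It was not particular to Hhip cells in the whole table, since classical monocytes had 12 CPM. In Hhip cells it had 36.3 and 8.69 CPM in suffixes 1 and 4, and the call among the gates was lost without either suffix. Without suffix 4 the gates differed in 6 genes, 5 of them among the 9, and Slc13a4, Slc22a3 and Slc8a3 were lost with Slc25a13.

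**Figure D5:**
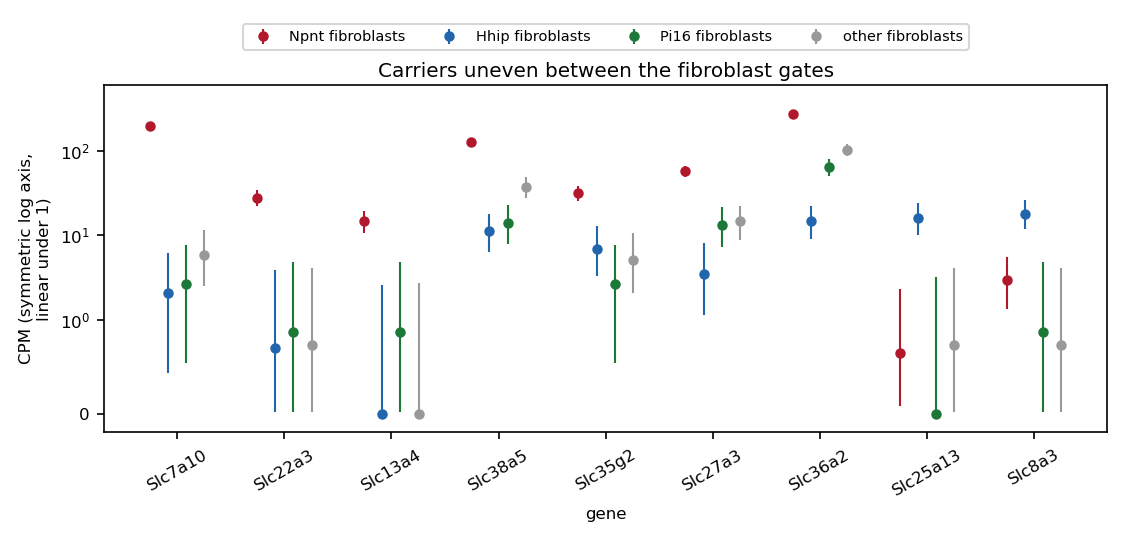
Level (CPM, symmetric log axis that is linear under 1, with exact Poisson 95% intervals) of the 9 carriers that differed between the fibroblast gates, in Npnt (red), Hhip (blue), Pi16 (green) and ungated fibroblasts (grey). The first 7 genes are highest in Npnt fibroblasts and the last 2, Slc25a13 and Slc8a3, in Hhip fibroblasts.

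Some carriers lay close to the limits of the rule. Just inside the 4-fold line and the bound was Slc16a11 (ratio 5.41, lower bound 2.38). Just outside the fold were Slc27a3 (3.94), Slc25a10 (3.89), Slc35g2 (3.51), Slc38a5 (3.4) and Slc16a3 (3.23), and Slc19a1, the folate carrier, had a ratio of 3.56 from 3 UMIs in mural cells. The 4 genes that passed the fold and not the bound, named here because of their values, were Slc31a1, a copper importer (101.5 CPM in epithelium, lower bound 1.997), Slc9a2, a sodium-proton exchanger (10.1 CPM in alveolar macrophages), Slc26a9, a chloride carrier (58.9 CPM in epithelium), and Slc44a3, of the choline family (32.5 CPM in epithelium). The highest class held fewer than 10 UMIs for 46 genes, which could not be called. Slc4a1, the anion exchanger of red blood cells, is one of them, with 2 of its 79 UMIs in cells of the 16 classes. In all, 192 of the 221 genes were called for neither a class nor a lineage, and 32 had 3 or more UMIs in every class.

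The summed level of the 221 genes lay between 3077 CPM in T cells and 8102 CPM in epithelium, where Slc34a2 alone gave 3389 CPM. Npnt fibroblasts had 6608 CPM, against 4586 CPM in Hhip and 5202 CPM in Pi16 fibroblasts. Npnt fibroblasts were the highest class for 27 carriers (12.2%, against 5.45% of all genes), alveolar macrophages for 30 (13.6%, against 8.93%) and mural cells for 32 (14.5%, against 17.6%). Mural cells held the fewest UMIs in all of any class used (89373), and 3 UMIs there are 33.6 CPM, against 0.975 CPM in Npnt fibroblasts. With every other class set to at least 3 UMIs, 3 of the 12 class calls were kept, for Slc7a10, Slc16a1 and Slc34a2. The other 9 had no UMI in mural cells. The 3 UMIs are a chosen setting and not a limit of detection, since Slc30a1 was read in mural cells from 2 UMIs (22.4 CPM). For a gene with no UMI in mural cells, the upper bound of the exact Poisson interval was 41.3 CPM.

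Carriers and pumps with other symbols were read by the same rule from a list of 43, of which 34 had 50 UMIs. There were 5 class calls and 9 lineage calls among them, against 5.46% and 11.8% of all genes. Slco2a1, the prostaglandin carrier, had 879 CPM in endothelium, 5.99 times mesothelium, and Abcb1a, a drug efflux pump, had 93.8 CPM there, 4.26 times NK cells. Ucp3, a mitochondrial uncoupling protein, had 28.6 CPM in alveolar macrophages (19.9 times C1q macrophages) and Abcg1, a sterol exporter, 1486 CPM (8.91 times). Abcg1 is also among the markers that checked the alveolar macrophage class, so its call repeats that check and is no separate result. Aqp5, a water channel, had 290 CPM in epithelium, 24.4 times mesothelium.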

How the data were processed

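Single cells were captured with the 10x Single Cell 3′ v2 kit, per the labels' protocols. The submitters' processing notes name STAR 2.5.1, Cell Ranger 1.3.0 and mm10. The deposited table holds whole UMI counts, not normalized, of 10410 barcodes. The authors' normalized table was not used. Barcodes under 500 genes or over 10% mitochondrial UMIs were dropped (9994 were kept), and 75 doublets (0.750%) called by Scrublet (scanpy 1.11.5) for each suffix were removed, which left 9919 cells with a median of 2699 UMIs. Of these, 3326 fell in no class, in several or in ones not used. Classes under 40 cells, a limit set after the class sizes were seen, were left out. Counts were summed per class (numpy 2.4.6, scipy 1.17.1) and given as CPM with exact Poisson intervals. The call rule was run on simulated Poisson counts per class with raised genes planted. Those counts hold no grouping of UMIs within single cells, so the run cannot show how the rule behaves under it. Gene positions are those of GENCODE M21. Of the 221 genes, 169 had a RefSeq promoter. Named were all class calls, up to 6 lineage calls a lineage and 8 gate calls a gate, the 5 uncalled genes with the most UMIs and the 3 nearest the threshold, with further genes named for their values. The genes, lists and rules were chosen with earlier results of these data known. The planned comparisons of day and gate were not made, since no suffix is tied to a sample. Some genes of the list of other carriers and pumps are not reported here.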

Additional observations from a re-analysis of the deposited data

How the results depend on the processing

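No paired analysis was possible because the labels give no replicate numbers, the barcodes are not tied to samples and no test was made. At an 8-fold threshold 7 carriers were restricted to a class, and 5 differed between fibroblast gates, all among those called at 4-fold. With every other class set to at least 3 UMIs, 3 were restricted to a class and 7 to a lineage. Under that setting the log2 ratio to the next class, then mural cells, was -1.20 for Slc13a4, -0.28 for Slc22a3, -0.020 for Slc39a2, -0.78 for Slc46a2 and -0.89 for Slc8a3. By construction this sets the 46 mural cells, which had no UMI of these genes, to 33.6 CPM.

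The counts under all other settings lay within 1.5 times the main ones, at 11 to 17 for classes, 20 to 35 for lineages and 6 to 10 for gates, but the genes behind them changed. Without suffix 4 there were 12 class calls and 5 were shared with the 12 given above. With clusters made without carriers and gate genes in place of the gates there were 16 and 8 were shared. Slc39a2, Slc46a2, Slc8a3 and Slc9a4 were lost there. With 1000 genes and 5% mitochondrial UMIs, where the epithelium and mural classes fell under 40 cells, there were 13 and 8 were shared. Without suffix 1 the mural class also fell under 40 cells, and there were 17, with all 12 among them. Settings that drop a class thus compare fewer classes than the main one. Leaving the mural class out, a setting chosen after seeing the data, gave 16 class calls, with all 12 among them. The total of UMIs in a class limits mural cells most, where 3 UMIs are 33.6 CPM, and then nonclassical monocytes, where they are 8.25 CPM.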
